A study of Mus musculus with 6 samples.

Results

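The Hox genes of 4 clusters were followed across 6 messenger RNA libraries of mouse embryonic stem cells (ESCs). Members were the rows of the expression table whose symbol is Hoxa, Hoxb, Hoxc or Hoxd followed by a number, which gave 38 of 19489 genes. RefSeq lists 39 such genes in the mouse, and Hoxa6 was not analysed here. The study asked what forced expression of Dppa3, a maternal factor of the oocyte and early embryo, does to ESCs. OE ESCs carried a Dppa3 expression vector driven by the CAG promoter and Con ESCs the empty vector, and both were selected with puromycin and grown in 15% serum with LIF. The groups were OE cells labelled D7 (1 library, OE-D7), Con cells labelled D7 (1 library, Con-D7), OE cells without that label (2 libraries, OE-1 and OE-2) and Con cells without it (2 libraries, Con-1 and Con-2). The labels do not say what D7 stands for, and the last 4 libraries are called D0 here as the study heads their averages. No source names the line sequenced here. The study's methods speak in general of independent experiments, and nothing ties this to the libraries of a group. The p-values therefore reflect the spread among these libraries alone, which may be technical.

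Hox genes encode homeodomain transcription factors that give cells their place along the head-to-tail axis. They lie side by side in clusters, numbered from the 3′ end, and in the embryo low numbers come on early and anteriorly and high numbers late and posteriorly. In ESCs the clusters are held silent by Polycomb complexes at CpG-rich DNA that also carries an activating histone mark, and retinoic acid, Wnt, Fgf and Cdx factors are known to open them during differentiation.

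Hoxa genes (10 members) lie at chr6:52155367-52260880, Hoxb genes (10) at chr11:96194316-96368254, Hoxc genes (9) at chr15:102921131-103036856 and Hoxd genes (9) at chr2:74668225-74765142 in GRCm38.p6. Of the members, 21 had a promoter in the RefSeq table of that build, which holds 250 bases before and 50 bases after each start. Their 23 promoters had a median of 14 CpG (from 4 to 45), against a median of 7 over all 32851 promoters. Their median GC content was 57.3%, against 52.7% over all promoters. The bases from 250 to 51 before the start are shown for the 4 members that rose in D7 (below) and had an entry, and for Hoxd13, which had counts in every library, with CG in capitals.
Hoxd8, chr2:74704365-74704564, plus strand: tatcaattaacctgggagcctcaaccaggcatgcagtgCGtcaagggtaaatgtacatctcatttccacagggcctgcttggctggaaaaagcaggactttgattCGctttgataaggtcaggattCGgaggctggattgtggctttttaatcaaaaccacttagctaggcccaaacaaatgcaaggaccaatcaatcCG
Hoxd9, chr2:74697513-74697712, plus strand: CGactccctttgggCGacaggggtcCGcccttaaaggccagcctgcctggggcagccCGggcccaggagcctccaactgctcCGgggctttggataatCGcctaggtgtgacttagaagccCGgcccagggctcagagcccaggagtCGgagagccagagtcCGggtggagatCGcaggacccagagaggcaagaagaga
Hoxa9, chr6:52227421-52227620, minus strand: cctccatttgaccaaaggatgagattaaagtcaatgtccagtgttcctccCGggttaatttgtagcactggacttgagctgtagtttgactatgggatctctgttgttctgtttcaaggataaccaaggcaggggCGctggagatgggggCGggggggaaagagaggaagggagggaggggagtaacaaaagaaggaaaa
Hoxb4, chr11:96318017-96318216, plus strand: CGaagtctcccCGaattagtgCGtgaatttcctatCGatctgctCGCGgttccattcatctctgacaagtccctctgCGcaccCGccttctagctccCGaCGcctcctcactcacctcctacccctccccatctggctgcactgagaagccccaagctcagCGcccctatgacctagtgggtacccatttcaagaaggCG
Hoxd13, chr2:74667975-74668174, plus strand: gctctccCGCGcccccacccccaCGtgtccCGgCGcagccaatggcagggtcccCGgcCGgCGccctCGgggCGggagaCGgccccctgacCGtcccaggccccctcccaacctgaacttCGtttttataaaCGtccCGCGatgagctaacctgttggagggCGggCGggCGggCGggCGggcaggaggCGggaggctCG
The stretches of Hoxd8 and Hoxa9 held 4 and 3 CG, those of Hoxd9 and Hoxb4 held 10 and 12, and that of Hoxd13 held 23, so the members that rose did not share one CG density. The letters TTTATG, the core bound by Cdx factors, stood on either strand in 5 of the 23 Hox promoters and in 11.9% of all promoters, and in none of those shown here over the whole 300 bases. The letters TGATTNAT, bound by Hox proteins with their cofactors, stood in 2 Hox promoters and in 3.22% of all promoters.

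Library totals ran from 17408954 to 18176939 estimated counts, and 10 counts of a transcript of 2 kb came to 0.275 to 0.287 FPKM (fragments per kilobase of transcript, scaled to library depth). Dppa3 checked the labels, with 131 FPKM in OE-D7 against 26.2 in Con-D7, 278.8 in OE-1 against 6.09 in Con-1, and 278.8 in OE-2 against 3.89 in Con-2. OE was above Con in all 3 pairs, and the D7 pair had both the lowest OE level and the highest Con level.

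Hox transcripts were scarce in every library. A gene was called detected at 0.5 FPKM or more, the level reached by 66.7% to 72.5% of all genes with a count, depending on the library. By that measure 18 of 38 Hox genes were detected in OE-D7 and 10 in Con-D7, against 3 in OE-1, 3 in Con-1, 8 in OE-2 and 7 in Con-2. Both D7 libraries were above all D0 libraries, while OE-1 and Con-1 were lowest. The median Hox gene had 0.35 and 0.225 FPKM in OE-D7 and Con-D7, against 0.045, 0.045, 0.105 and 0.07 FPKM in OE-1, Con-1, OE-2 and Con-2, where the median of all genes was 3.0 to 4.12 FPKM over the 6 libraries. All Hox genes together took 0.00541% and 0.0036% of the counts in OE-D7 and Con-D7 and 0.00153% to 0.00348% in the D0 libraries. The highest value of any member was 3.94 FPKM, for Hoxc13 in Con-2.

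**Figure D1:**
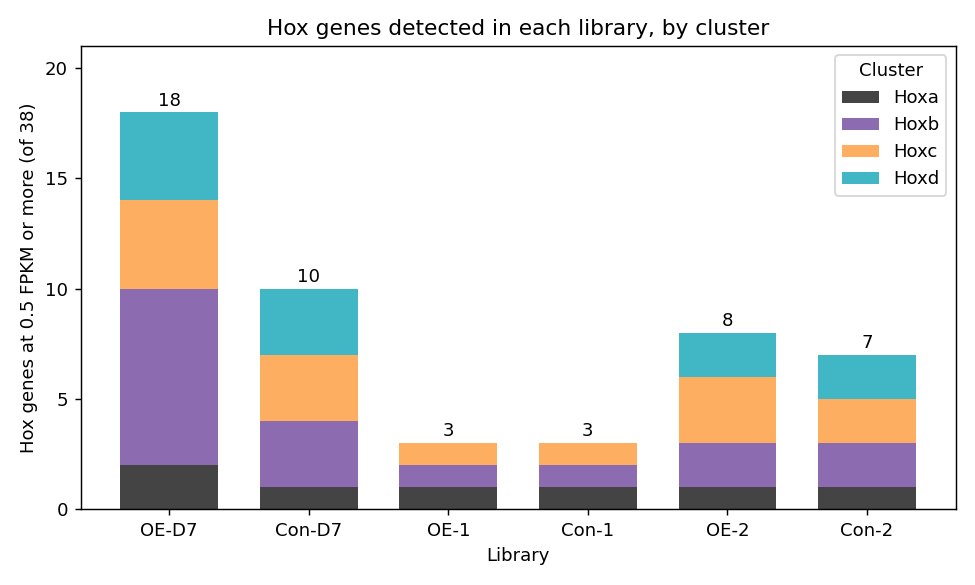
Number of Hox genes at 0.5 FPKM or more in each of the 6 libraries (bars, stacked by cluster; of 38 genes). OE-D7 has 18 and Con-D7 has 10, the 4 D0 libraries 3 to 8, and the Hoxb cluster holds 8 of the 18 in OE-D7.

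Detection in D7 was uneven over the clusters. Hoxb had 8 of 10 genes detected in OE-D7 and 3 in Con-D7, against 1 or 2 in each D0 library. Hoxd had 4 and 3 of 9, against 0 in OE-1 and Con-1 and 2 in OE-2 and Con-2. Hoxc had 4 and 3 of 9, against 1 to 3, and Hoxa had 2 and 1 of 10, against 1 in each D0 library. By position number, the central genes (4 to 8) had 7 and 3 of 14 detected in OE-D7 and Con-D7, against 0, 0, 1 and 1 in OE-1, Con-1, OE-2 and Con-2. The anterior genes (1 to 3) had 4 and 2 of 8, against 1 or 2, and the posterior genes (9 to 13) had 7 and 5 of 16, against 2 to 5. The central genes thus had the lowest detection in D0, and no test of a difference between clusters or regions was made. Of the 38 genes, 19 were detected in at least 1 library and 3 in all 6, among them Hoxb9 and Hoxc13. Detection was limited to D7 libraries for 11 members, and to OE-D7 for 8 of these 11. The share over all genes was not computed for these 2 counts, so they are not read as a trait of Hox genes. Over all genes with a count, detection was also highest in OE-D7 (72.5%) and Con-D7 (71.8%).

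**Figure D2:**
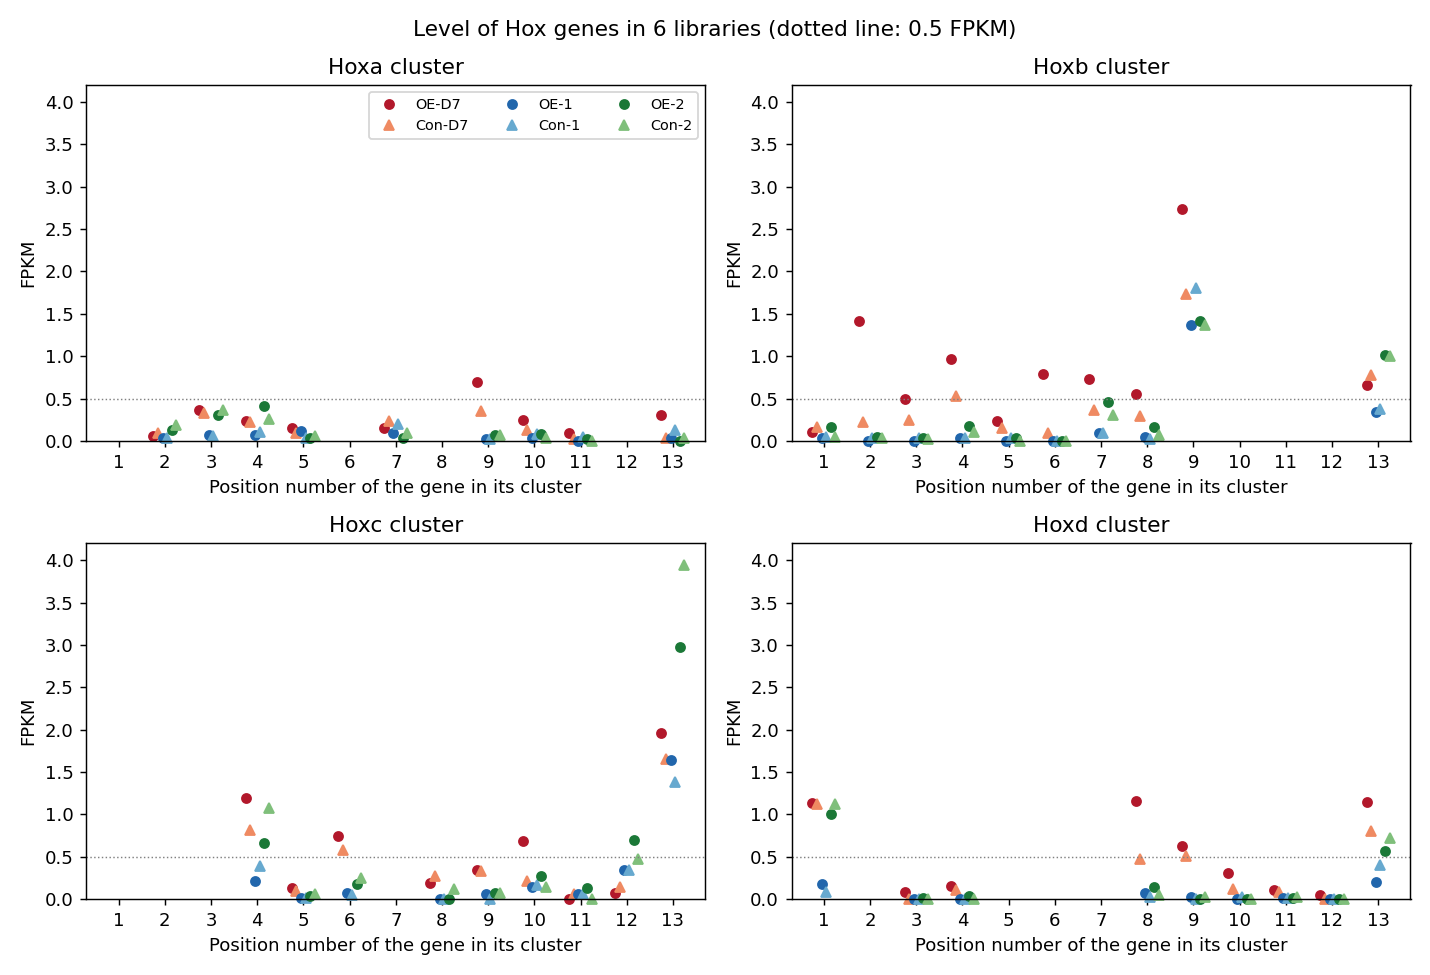
FPKM of the Hox genes, with 1 of the 38 left out (vertical axis, linear), against position number (horizontal axis), 1 panel per cluster, with circles for OE and triangles for Con libraries. Hoxb9 and Hoxc13 reach 0.5 FPKM (dotted line) in every library, and Hoxb2, Hoxb3, Hoxb4, Hoxb6, Hoxb7 and Hoxb8 do so only in D7 libraries.

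To ask whether D7 libraries differed from D0 libraries, D7 was compared with D0 with genotype as a term by edgeR's quasi-likelihood test over all genes, with Benjamini-Hochberg adjustment. Low levels decide what such a test can see. With genes kept at a mean of 0.5 FPKM or more, 7 Hox genes could be tested and 0 passed at an adjusted p of 0.05, where 6.77% of 13809 genes were higher and 3.06% lower. Of these 7, 0 had an unadjusted p under 0.05. DESeq2 also called 0 of the 7, where it called 10.9% of all genes higher and 7.21% lower, and limma called 0, where it called 6.94% higher and 4.39% lower. With no filter all 38 members were tested, and 6 rose in D7 and 0 fell, where 5.95% of 19423 genes rose and 2.28% fell. These 6 were Hoxd8, Hoxd9, Hoxa9, Hoxb4, Hoxb3 and Hoxb2. At an unadjusted p under 0.05, 16 members were higher and 1, Hoxc12, was lower. At that threshold 2865 of all 19423 genes were higher and 2223 lower. The log2 difference was above 0 for 34 of 38 members, with a median of 1.498 against -0.009 over all genes.

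Hoxd8 and Hoxd9, neighbours in their cluster, had the smallest adjusted p values of the 6. Hoxd8 had 1.16 and 0.47 FPKM in OE-D7 and Con-D7, against 0.07, 0.03, 0.14 and 0.05 FPKM in OE-1, Con-1, OE-2 and Con-2. The groups did not overlap, and OE-D7 stood above Con-D7. Its log2 fold change was 3.41 (SE 0.49, edgeR, adjusted p = 0.0125). Hoxd9, a gene of forelimb and motor neuron patterning, had 0.63 and 0.51 FPKM in OE-D7 and Con-D7, against 0.03, 0.0, 0.0 and 0.03 FPKM in OE-1, Con-1, OE-2 and Con-2. Here the D7 libraries lay close together and D0 was at or near 0. Its log2 fold change was 5.05 (SE 0.77, edgeR, adjusted p = 0.0147), resting on 42 counts in D7 and 2 in D0, a ratio per library total of 42.6 (95% exact interval 11.1 to 364). Such intervals cover counting error only.

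Hoxa9, best known from blood progenitors and leukaemia, was the only Hoxa gene to rise. It had 0.69 and 0.35 FPKM in OE-D7 and Con-D7, against 0.02, 0.02, 0.07 and 0.07 FPKM in OE-1, Con-1, OE-2 and Con-2, with no overlap. Its log2 fold change was 3.36 (SE 0.61, edgeR, adjusted p = 0.0253).

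In the Hoxb cluster the neighbours Hoxb4, Hoxb3 and Hoxb2 rose. By the RefSeq coordinates Hoxb4 lies within Hoxb3, and the counts of both hold fractions. Reads may thus be shared between Hoxb4 and Hoxb3, which was not measured. Hoxb4, which expands blood stem cells when overexpressed, had 0.97 and 0.53 FPKM in OE-D7 and Con-D7, against 0.04, 0.04, 0.18 and 0.11 FPKM in OE-1, Con-1, OE-2 and Con-2 (log2 fold change 2.92, SE 0.54, edgeR, adjusted p = 0.0273). Hoxb3 had 0.5 and 0.25 FPKM in OE-D7 and Con-D7, against 0.0, 0.03, 0.04 and 0.02 FPKM in OE-1, Con-1, OE-2 and Con-2 (log2 fold change 3.90, SE 0.74, edgeR, adjusted p = 0.0292). Hoxb2, a hindbrain segment gene, had 1.42 and 0.22 FPKM in OE-D7 and Con-D7, against 0.0, 0.04, 0.05 and 0.03 FPKM in OE-1, Con-1, OE-2 and Con-2 (log2 fold change 4.16, SE 0.89, edgeR, adjusted p = 0.0413). For all 3 genes the D7 libraries lay above the D0 libraries, and the gap between OE-D7 and Con-D7 was widest at Hoxb2, where Con-D7 held 5 counts. These calls needed both D7 libraries: 0 of the 38 members rose without OE-D7 (0.0312% of all genes) and 0 without Con-D7 (0.338%). Without OE-1 (2.69% of all genes) and without OE-2 (2.36%) the 2 calls at Hoxd8 and Hoxd9 were left. Without Con-1 (5.8%) there were the same 6, and without Con-2 (9.51%) there were 9. DESeq2 without a filter called the same 6 members higher (8.45% of all genes), and limma on log2(FPKM + 0.5) called 11 higher (7.16%), of which 5 were among the 6. Libraries of the same number deviated together (r = 0.76 to 0.89 across genes), so the D7 pair may amount to 1 set against 2 D0 sets, while the fit takes 6 libraries as independent and its p-values may be too small. With the OE and Con counts of each number summed, edgeR without a filter called 6 members higher (3.11% of all genes), of which 5 were among the 6, with Hoxb6 added and Hoxb4 lost (edgeR, adjusted p = 0.056 for Hoxb4).

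**Figure D3:**
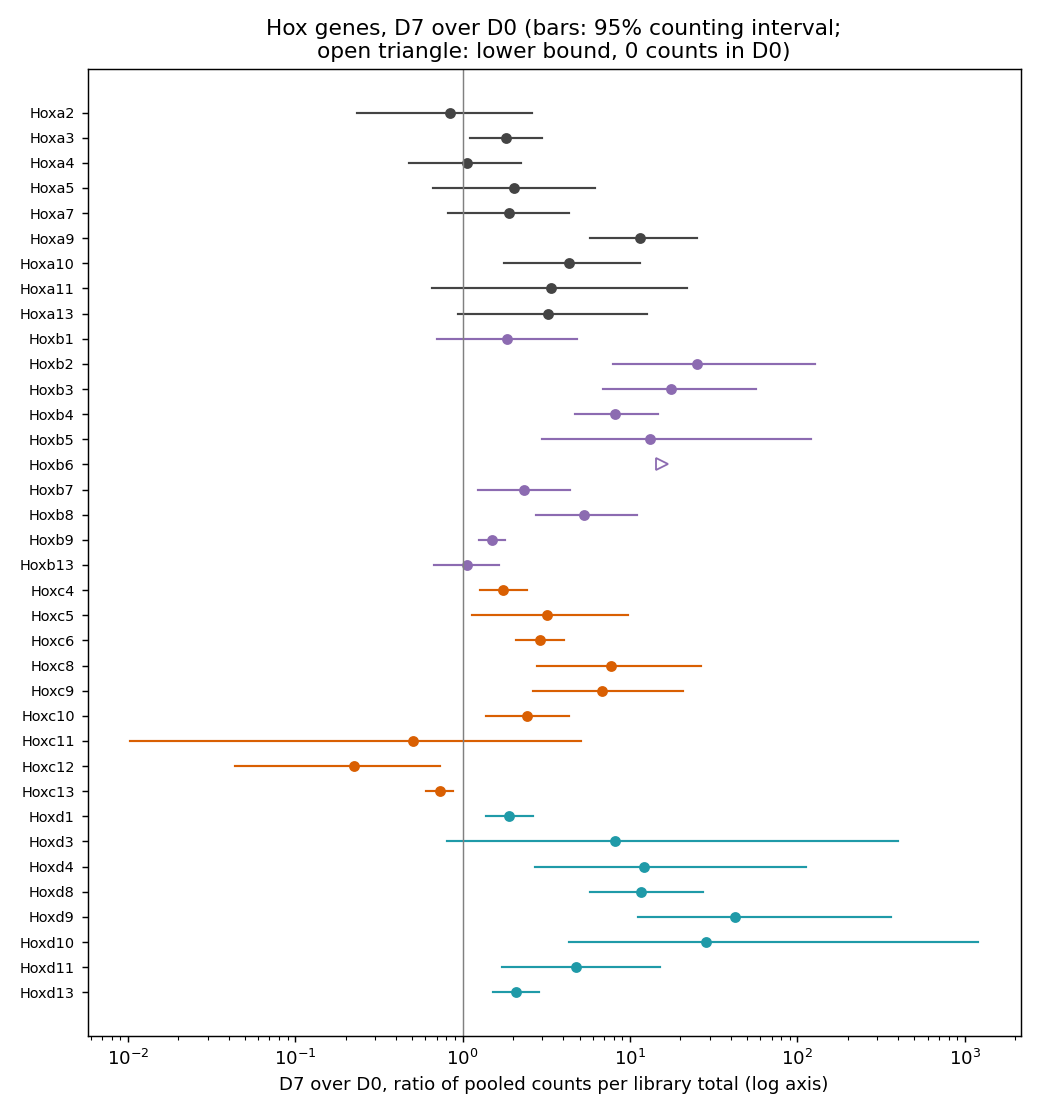
Ratio of D7 to D0 for the Hox genes, with 1 of the 38 left out (points, log axis; pooled counts over pooled library totals), with 95% exact counting intervals (bars), by cluster and position; Hoxd12 has too few counts for a ratio. Hoxd9 (42.6), Hoxd10 (28.4) and Hoxb2 (25.0) lie farthest to the right. Hoxc12 (0.226), Hoxc11 (0.507), Hoxc13 (0.73) and Hoxa2 (0.846) lie to the left of 1. Hoxb6, with 0 counts in D0, is shown as a lower bound of 15.6 (open triangle, no bar).

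Other members were detected only in D7 without passing the test. Hoxb6 had 0.79 and 0.09 FPKM in OE-D7 and Con-D7, with 21 and 2 counts, and was at 0 in all 4 D0 libraries, so that D7 was at least 15.6-fold higher against a floor of 3 counts over the D0 libraries. Hoxb7 had 0.73 and 0.36 FPKM in OE-D7 and Con-D7, against 0.09, 0.09, 0.46 and 0.31 FPKM in OE-1, Con-1, OE-2 and Con-2, where Con-D7 fell within the D0 range. Hoxb8, a gene of blood and microglial progenitors, had 0.55 and 0.29 FPKM in OE-D7 and Con-D7, against 0.05, 0.02, 0.17 and 0.07 FPKM in OE-1, Con-1, OE-2 and Con-2 (edgeR, adjusted p = 0.0649). These 3 Hoxb genes were thus also highest in OE-D7. Hoxc6, a thoracic gene, had 0.75 and 0.58 FPKM in OE-D7 and Con-D7, against 0.07, 0.05, 0.18 and 0.25 FPKM in OE-1, Con-1, OE-2 and Con-2, with no overlap (edgeR, adjusted p = 0.0742). Its counts gave a smaller ratio of 2.89 (95% exact interval 2.07 to 4.04), since counts per FPKM differed between libraries at this gene. Hoxc10, a gene of the lumbar region and hindlimb, had 0.69 and 0.21 FPKM in OE-D7 and Con-D7, against 0.15, 0.17, 0.27 and 0.15 FPKM in OE-1, Con-1, OE-2 and Con-2, so only OE-D7 stood apart.

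Across all members, both D7 libraries lay above all 4 D0 libraries for 18 of 38 Hox genes, where 23.1% of all genes with a count did so. They lay below for 1, Hoxc12, where 17.9% of all genes did. The 18 comprised 6 of 10 Hoxb, 6 of 9 Hoxd, 4 of 9 Hoxc and 2 of 10 Hoxa genes, or 9 of 14 central, 7 of 16 posterior and 2 of 8 anterior genes. Within genotypes, OE-D7 lay above OE-1 and OE-2 for 31 of 38 members (38.7% of all genes), and Con-D7 above Con-1 and Con-2 for 23 (35.8%). The pattern was thus seen in each genotype, with more members in OE. Hoxc12 ran the other way, with 0.07 and 0.14 FPKM in OE-D7 and Con-D7, against 0.34, 0.34, 0.7 and 0.48 FPKM in OE-1, Con-1, OE-2 and Con-2 (edgeR, adjusted p = 0.143).

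Members with higher levels in D0 were not among those that rose. Hoxb9, a gene of the thoracic skeleton, had 2.74 and 1.73 FPKM in OE-D7 and Con-D7, against 1.37, 1.81, 1.41 and 1.37 FPKM in OE-1, Con-1, OE-2 and Con-2. The groups overlapped at Hoxb9, where Con-1 lay above Con-D7. Hoxc13, a gene of hair and nail keratinocytes, had 1.96 and 1.66 FPKM in OE-D7 and Con-D7, against 1.64, 1.38, 2.97 and 3.94 FPKM in OE-1, Con-1, OE-2 and Con-2. Hoxb13, a gene of the tail bud and prostate, had 0.66 and 0.78 FPKM in OE-D7 and Con-D7, against 0.34, 0.38, 1.01 and 1.0 FPKM in OE-1, Con-1, OE-2 and Con-2. At these last members of their clusters both D7 libraries lay between the replicate 1 and the replicate 2 libraries. Hoxd13, the digit gene, had 1.15 and 0.81 FPKM in OE-D7 and Con-D7, against 0.2, 0.4, 0.57 and 0.72 FPKM in OE-1, Con-1, OE-2 and Con-2. It had the smallest adjusted p of the 7 genes that passed the filter (log2 fold change 1.08, SE 0.51, edgeR, adjusted p = 0.222), and its D0 mean of 0.472 FPKM alone would not have passed it.

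The D0 libraries differed among themselves by replicate number. Both replicate 2 libraries lay above both replicate 1 libraries for 17 of 38 Hox genes (44.7%), near the share of 40.2% over all genes. They lay below for 0 Hox genes, where 23.1% of all genes did. Hoxd1, which acts in pain-sensing neurons of the mouse, showed such a gap, with 1.14 and 1.12 FPKM in OE-D7 and Con-D7, against 0.18 and 0.09 FPKM in OE-1 and Con-1 and 1.01 and 1.12 FPKM in OE-2 and Con-2. The D7 and replicate 2 levels of Hoxd1 were thus alike and the replicate 1 levels low. Hoxc4 had 1.19 and 0.82 FPKM in OE-D7 and Con-D7, against 0.22, 0.39, 0.66 and 1.08 FPKM in OE-1, Con-1, OE-2 and Con-2, where Con-2 lay above Con-D7. Both D7 libraries lay above both replicate 1 libraries for 29 of 38 members (40.7% of all genes) and above both replicate 2 libraries for 21 (29.2%).

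The remaining 19 members stayed under 0.5 FPKM in every library: Hoxa2, Hoxa3, Hoxa4, Hoxa5, Hoxa7, Hoxa10, Hoxa11, Hoxa13, Hoxb1, Hoxb5, Hoxc5, Hoxc8, Hoxc9, Hoxc11, Hoxd3, Hoxd4, Hoxd10, Hoxd11 and Hoxd12. The highest value among them was 0.41 FPKM, for Hoxa4 in OE-2. Several still had groups that did not overlap. Hoxd10 had 10 and 4 counts in OE-D7 and Con-D7 against 0, 1, 0 and 0 in OE-1, Con-1, OE-2 and Con-2, Hoxc9 had 10 and 10 against 2, 0, 2 and 2, and Hoxb5 had 8 and 5 against 0, 1, 1 and 0. At such counts a difference is not excluded for the members that did not pass. By GENCODE M21, 11 members overlap a coding gene on the same strand, such as Hoxa3 with Hoxa4 and Hoxa5, or Hoxd3 with Hoxd4, and 13 have a gene on the opposite strand, among them Hoxb2, Hoxb3 and Hoxd8. The strand setting of the count is not given in the sources used here, so reads of such partners cannot be told apart.

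Genes known to act on or with Hox genes were compared in the same D7 test, with the filter, where 6.77% of all genes rose and 3.06% fell. Of 8 TALE cofactors tested, which bind DNA together with Hox proteins, 3 rose and 0 fell. Meis2 had 1.91 and 1.84 FPKM in OE-D7 and Con-D7, against 0.65, 0.74, 0.72 and 0.41 FPKM in OE-1, Con-1, OE-2 and Con-2 (log2 fold change 1.57, SE 0.32, edgeR, adjusted p = 0.0395), and Pknox2 rose by 1.73 on the log2 scale. Of 14 genes of the retinoic acid pathway, 3 rose, among them Cyp26a1, which breaks retinoic acid down (log2 fold change 3.28, edgeR, adjusted p = 0.0159), and Rdh10, which makes retinal (1.33). Of 2 ParaHox genes tested, 1 rose, the Hox activator Cdx2, with 1.2 and 1.49 FPKM in OE-D7 and Con-D7, against 0.1, 0.15, 0.05 and 0.05 FPKM in OE-1, Con-1, OE-2 and Con-2 (log2 fold change 3.83, edgeR, adjusted p = 0.0123). Meis2 and Cdx2 were thus close in OE-D7 and Con-D7. Pknox2 (2.31 and 1.27 FPKM) and Rdh10 (6.05 and 3.72 FPKM) were higher in OE-D7 than in Con-D7. By their D0 means of 0.088 and 0.172 FPKM alone, Cdx2 and Cyp26a1 would not have passed the filter. A rise was thus favoured in advance for both.

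Among repressors and activators of chromatin few genes passed, where 6.77% of all genes rose and 3.06% fell. With lists this short, the counts are not read as results about the lists. Of 12 genes of Polycomb repressive complex 2, 2 fell in D7: Eed, a core subunit, fell by 0.92 on the log2 scale (edgeR, adjusted p = 0.0461) and Jarid2, an accessory subunit, fell by 0.79 (edgeR, adjusted p = 0.0252). Of 20 genes of Polycomb repressive complex 1, 2 rose: Bcor, with a log2 fold change of 1.42, and Yaf2, with 0.92. Of 11 Trithorax genes and H3K27 demethylases, 0 passed in the edgeR test, with 3 at an unadjusted p under 0.05, and DESeq2 called 1 (Dpy30) and limma 0. Of 14 genes flanking the clusters 0 passed by edgeR, with 2 at an unadjusted p under 0.05, and DESeq2 and limma each called 1 (Cbx5). Each list's median log2 difference lay between -0.18 and 0.15, against -0.03 over all genes.

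Markers of some other cell types were also higher in D7. Of 12 fibroblast and feeder markers, summed levels were 186.3 and 74.5 FPKM in OE-D7 and Con-D7, against 33.0 to 57.2 FPKM in D0, and 9 and 8 of the 12 reached 0.5 FPKM, against 3 or 4 in D0. Thy1 made up most of the D0 sums and did not pass the test, with 20.97 and 22.95 FPKM in OE-D7 and Con-D7 against 30.84 to 52.99 FPKM in D0, and the other 11 markers summed to 165.3 and 51.55 FPKM, against 2.19 to 4.24 FPKM. Of 8 tested, 5 rose. Col1a1 had 129 and 37.98 FPKM in OE-D7 and Con-D7, against 0.8 to 1.81 FPKM in D0, while Dcn and Lum stayed at 0.21 FPKM or less in every library. The 7 trophectoderm markers summed to 1186 and 670 FPKM in OE-D7 and Con-D7, against 38.1 to 63.1 FPKM in D0, and 4 of 6 tested rose, among them Hand1 and Krt8. Both lists were thus higher in OE-D7 than in Con-D7, as most Hox genes were. Some rising markers of both lists passed the filter only through their D7 levels, so their rise was favoured in advance. The 10 markers of posterior mesoderm summed to 9.99 and 12.2 FPKM in OE-D7 and Con-D7, against 4.58 to 7.51 FPKM in D0. Of 5 tested, 1 rose (Cdx2). Of 9 neural markers only Nes could be tested, and it rose. Of 7 endoderm markers 3 were tested, and 1 rose (Gata4). The neural marker Sox1 was lower, with 0.16 and 0.04 FPKM in OE-D7 and Con-D7 against 0.28 to 0.52 FPKM in D0. The 8 ESC markers summed to 3303 to 3492 FPKM over the 6 libraries, and 4 of them fell in D7 (Esrrb, Klf4, Tfcp2l1 and Pou5f1). Dppa5a held much of these sums and did not pass the test, with 2268 and 2083 FPKM in OE-D7 and Con-D7 against 1238 to 1701 FPKM in D0, and the other 7 summed to 1187 and 1295 FPKM, against 1791 to 2145 FPKM. The part of such cells in the Hox levels was not tested, and in bulk RNA fewer cells of a type and less RNA per cell cannot be told apart.

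To ask whether Dppa3 overexpression moved the Hox genes, OE was compared with Con. Over the 4 D0 libraries 0 of 6 Hox genes tested passed, and over all 6 libraries 0 of 7, where 0.0% of all genes passed in either fit. Dppa3 itself passed in neither (log2 fold change 5.75, edgeR, adjusted p = 0.43 over 4 libraries). These fits thus cannot decide whether Hox genes moved. At an unadjusted p under 0.05 the Hox count was also 0 in both fits. DESeq2 called 0 Hox genes, where it called 0.0148% of all genes higher over 4 libraries and 0.0434% over 6, with 0.0% and 0.00724% lower, and limma called 0. With replicate number as a block, which called 0.763% of all genes higher and 0.126% lower over the 4 libraries, 0 of 6 Hox genes passed, and with the block and no filter 0 of 36 did (0.159% of all genes higher, 0.0106% lower). Over 6 libraries the block gave 0 of 7 (0.0% of all genes higher, 0.00724% lower). With the block and the filter Dppa3 passed over 4 libraries (edgeR, adjusted p = 6.35e-15) and not over 6 (edgeR, adjusted p = 0.118). With no filter and no block, 0 of 36 passed over 4 libraries and 0 of 38 over 6. Over 6 libraries the block without a filter gave 0 of 38 (0.0927% of all genes higher, 0.00515% lower). At an unadjusted p under 0.05 in that fit, 3 members were higher (Hoxb6, Hoxd8 and Hoxb2) and 0 lower. Of 19423 genes, 763 were higher and 746 lower at that threshold. These 3 members had their highest level in OE-D7. Log2 differences of the members tested with the filter ran from -0.66 to -0.05 over 4 libraries and from -0.2 to 0.05 over 6. With no filter and no block they ran from -4.39 to 3.15 over 4 libraries, above 0 for 13 of 36 members, and from -1.39 to 3.79 over 6, above 0 for 27 of 38.

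Within pairs the picture differed between D7 and D0. OE was above Con for 31 of 38 Hox genes in the D7 pair (52.3% of all genes), for 11 in pair 1 (54.4%) and for 18 in pair 2 (52.7%). OE was below Con for 7, 15 and 15 members in these pairs, and the others were equal, mostly at or near 0. The median log2 ratio over the 38 genes, on the scale of log2(FPKM + 0.5), which understates changes of low genes, was 0.20 in the D7 pair and 0.0 in pairs 1 and 2. With 1 library a side these are descriptions of libraries. OE was above Con in all 3 pairs for 2 members, Hoxb8 and Hoxd8 (18.3% of all genes), and below in all 3 for 1, Hoxa7 (8.32%).

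In the D7 pair the counting interval of the OE to Con ratio lay above 1 for 8 members. The share over all genes was not computed, so the 8 are not read as a trait of Hox genes. The ratio was 10.7 for Hoxb6 (95% exact interval 2.62 to 94.4), 6.54 for Hoxb2 (2.53 to 21.5) and 3.36 for Hoxc10 (1.39 to 9.27). It was 2.52 for Hoxd8, 2.12 for Hoxb3, 1.99 for Hoxa9, 1.87 for Hoxb4 and 1.59 for Hoxb9. Hoxb5 and Hoxd9 were not among these 8 genes, at 1.64 (0.472 to 6.35) and 1.24 (0.644 to 2.4). Intervals apart from 1 occurred in D0 pairs too, as below 1 for Hoxc13 in pair 2, at 0.754 (0.594 to 0.954). The difference between the OE effect in D7 and that in D0 was tested by an interaction term with 2 residual degrees of freedom. By edgeR it called 0 of 7 Hox genes with the filter and 0 of 38 without, with 0 at an unadjusted p under 0.05, and with the filter DESeq2 (0.00724% of all genes each way) and limma also called 0.

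**Figure D4:**
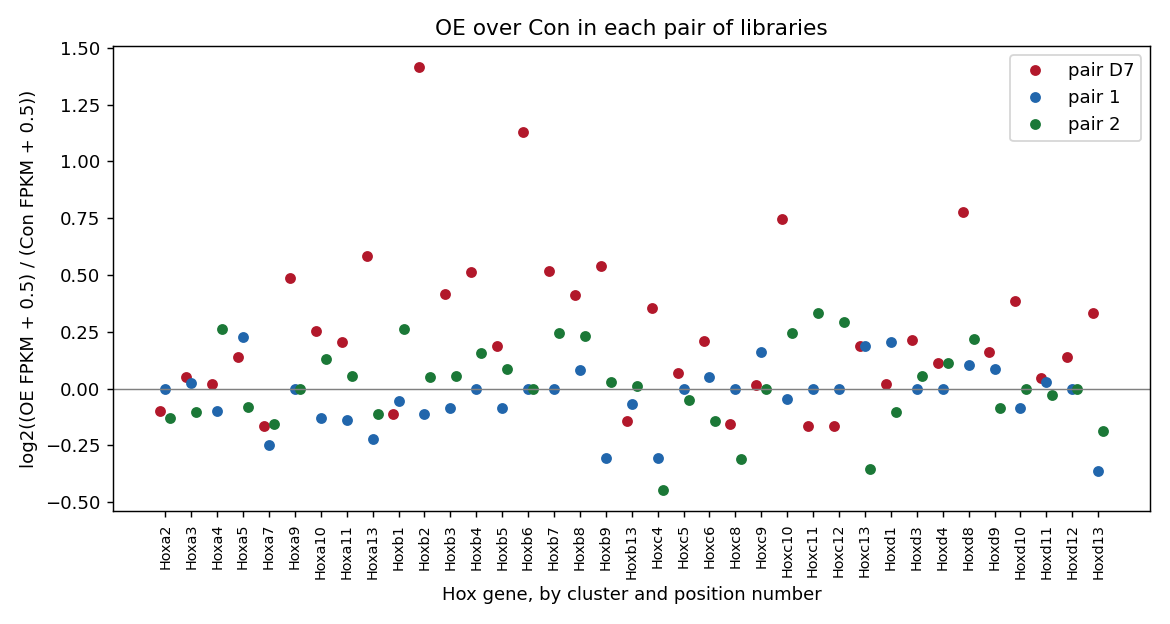
Log2 ratio of OE to Con FPKM, each plus 0.5, for the Hox genes, with 1 of the 38 left out (horizontal axis, by cluster and position number), in the D7 pair, pair 1 and pair 2 (points). Most points of the D7 pair lie above 0, and those of Hoxb2 and Hoxb6 lie highest.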

How the data were processed

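Total RNA of 6 mouse ESC libraries was sequenced on BGISEQ-500. The authors state Bowtie2 on mm10 and RSEM for mapping and counting. HISAT and GRCm38.p6 stand in the submitters' processing notes instead, and versions are not given in the sources used here. The authors deposited estimated counts per gene, not normalized, and FPKM values with 2 decimals, scaled for transcript length and depth. Although the D7 counts stand under a heading of averages, their values look like those of single libraries. The table held 19489 genes, and 26 symbols turned into dates were restored by gene number.

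Estimated counts were rounded and tested with edgeR 4.0.16 (TMM, quasi-likelihood F test, R 4.3.3) over genes averaging 0.5 FPKM or more, or with no filter, and p-values were adjusted over all genes tested. SEs are the log2 fold change over the square root of F. Rounding, a filter and low depth weigh most on members with few counts. DESeq2 1.42.0 and limma 3.58.1 on log2(FPKM + 0.5) were alternatives, as were other size factors, a filter at 1 FPKM, leaving out each library, and the replicate block. Fits were tested on simulated data with independent libraries and a smaller spread than in the D7 fit. Changes were placed only at genes above a minimum mean count. That test thus does not cover libraries that deviate together or members with few counts. Libraries of the same number deviated together from their genotype means over 12565 genes (r = 0.76 to 0.89, against -0.03 or below for other numbers, where deviations from a mean of 3 are held to sum to 0), so numbers were taken as pairs from the data and not from a label. As the third pair is the D7 pair, the D7 comparison had no block. Strain labels differ for each library and run in sample order, and were not used.

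Named genes were all members at 0.5 FPKM or more in some library, the rest as a list, and up to 6 passing genes per other list, except that some genes are counted but not reported here by name. The list of noncoding RNAs of the Hox clusters matched 0 rows. The members and lists were chosen with earlier results of these data known.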

Additional observations from a re-analysis of the deposited data

How the results depend on the processing

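The comparison of D7 with D0 called 0 Hox genes in every fit with a filter, whichever library was left out. Without a filter it called 6 by edgeR, 6 by DESeq2 and 11 by limma, and 6 with same-numbered libraries summed, the last 3 fits being added after seeing the data. Leaving out 1 library gave 0 to 9 calls without a filter. The filter left 7 of 38 members to test, and the cause of the other changes was not tested. Hoxb13, which did not pass, had log2 fold changes from -0.141 to 0.473 when 1 library was left out, against 0.087 with all. Over all genes the D7 comparison called 1357 genes, 2494 by DESeq2 2311 without the genotype term and 248 with same-numbered libraries summed (673 without a filter), and 0 to 2533 without 1 library, 0 being the count without OE-D7. OE against Con called 0 Hox genes under every alternative, and with the replicate block the count of all genes was 120 over 4 libraries and 1 over 6, with 0 Hox genes in each. Among 6 and 7 members tested there, 5 and 7 changed sign under at least 1 alternative. The interaction could not be fitted without a D7 library.

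At 0.1 FPKM 33 and 30 Hox genes were detected in OE-D7 and Con-D7, against 10, 11, 19 and 16 in OE-1, Con-1, OE-2 and Con-2. At 1 FPKM the counts were 8 and 4, against 3, 2, 5 and 6, so Con-D7 was then below OE-2 and Con-2. At 10 estimated counts they were 22 and 17, against 5, 5, 12 and 9. The D7 mean minus the D0 mean of detected genes was 8.75, and 4.75 to 12.75 without 1 library, the ends being without OE-D7 and without Con-D7. Both D7 libraries lay above D0 for 18 members, and OE-D7 above OE D0 alone for 31. With a pseudocount of 0.1 the median log2 ratio of OE to Con in the D7 pair was 0.42. With 1 D7 library per genotype and few counts at most members, a D7 difference within one genotype has no replicate check.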

Other observations

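Hoxc6 was the member whose counts and FPKM went apart. Its counts per FPKM, scaled by the library total to an apparent transcript length, were 3.8 and 3.99 kb in OE-D7 and Con-D7, against 10.72 and 10.73 kb in OE-1 and Con-1 and 5.52 and 5.35 kb in OE-2 and Con-2. At Hoxb9 and Hoxd13 the same measure stayed within 2.71 to 2.72 kb and 2.48 to 2.5 kb over the 6 libraries. Hoxc6 overlaps Hoxc5 on the same strand in GENCODE M21 but not in the RefSeq coordinates. Its counts hold fractions, as those of 5 other members do, while those of Hoxc5 do not. Sharing of reads was not measured.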
